A study of Arabidopsis thaliana with 2 samples.

Results

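Of 50 Arabidopsis thaliana genes of auxin perception, repression and transport, named by their gene identifiers, 29 are listed in an expression table of 11666 genes from seedlings of the ago1-36 mutant and of wild-type. They are the receptors AFB2 and AFB3, 16 Aux/IAA repressors, the conjugating enzymes GH3.3 and GH3.5, 4 efflux carriers of the PIN family, of which PIN3, PIN4 and PIN7 are described, the influx carriers AUX1, LAX1, LAX2 and LAX3, and the kinase PID. The genes were taken as members of these gene families. The remaining 21 were not in that table, so their expression was not analysed here. They are TIR1, AFB1, IAA10, IAA11, IAA15, IAA19, IAA20, IAA27 to IAA34, GH3.1, GH3.6, PIN2, LBD16, LBD18 and LBD29. LBD16, LBD18 and LBD29, transcription factors that act downstream of auxin in lateral root formation, thus have no values in what follows.

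The groups were ago1-36 mutant seedlings and wild-type seedlings, with 1 RNA-seq library each. Seedlings of both genotypes grew for 12 days on Murashige and Skoog plates with 3% sucrose at 23 °C, in days of 16 h light and 8 h darkness. The sources used here do not give the strain background, the number of seedlings in a library or the nature of the ago1-36 lesion. Values are RPKM, which scale a gene's reads by its length in kilobases and by the library's reads in units of 1000000, so levels can be set side by side between genes.

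Auxin is sensed by a pair of proteins that hold the hormone between them. TIR1/AFB F-box proteins bind a short degron in the Aux/IAA repressors when auxin is present, the SCF ubiquitin ligase then marks the Aux/IAA protein for destruction, and the ARF transcription factors it held in check can act. Many Aux/IAA and GH3 genes are themselves switched on by auxin, PIN and AUX1/LAX proteins move auxin out of and into cells, and PID phosphorylates PIN proteins. AGO1 is the main Argonaute of the plant microRNA pathway, and the receptor genes are known targets of microRNA miR393.

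AGO1 itself had 5.59 RPKM in the ago1-36 library and 48.6 RPKM in the wild-type library, 8.70-fold lower in ago1-36. An estimated 13590000 reads stood behind the ago1-36 library and 13670000 behind the wild-type library. Genes with at least 1 RPKM in at least 1 library were kept, 11373 in all, and a gene was counted as lower or higher where log2 of (ago1-36 RPKM + 1) over (wild-type RPKM + 1), called the log2 ratio here, reached 2-fold. This scale understates the differences of low genes. By that count 8.38% of kept genes were lower and 19.6% higher in ago1-36, and the median log2 ratio was -0.04. Log2 ratios from 0.1 to 0.3 were held by 38 kept genes, so genes slightly higher in ago1-36 are scarce in the table. The table's selection was not stated, and its part in the counts of members was not tested. With 1 library per genotype no difference has a replicate check, and no p-value was computed.

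All 29 listed genes passed the filter. In ago1-36, 9 were at least 2-fold lower and none was 2-fold higher, against 8.38% and 19.6% of kept genes (28.0% in either direction). The 9 were IAA1, IAA3, IAA5, IAA6, IAA13, IAA14, GH3.3, PIN7 and LAX2. By any amount, 24 of the 29 were lower, against 51.5% of kept genes, and the median log2 ratio was -0.57. The 5 on the higher side were IAA16, IAA18, IAA26, LAX3 and PID. In the authors' deposited table, 12 of the 29 had a log2 fold change of -1 or below, against 15.7% of kept genes, and 7 had a GFOLD score of -1 or below, against 7.54%. None of the 29 had a value of 1 or above in the authors' deposited table, against 19.8% of kept genes by the log2 fold change and 12.2% by the GFOLD score. In bulk seedlings, fewer cells of a type and less RNA per cell cannot be told apart.

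**Figure D1:**
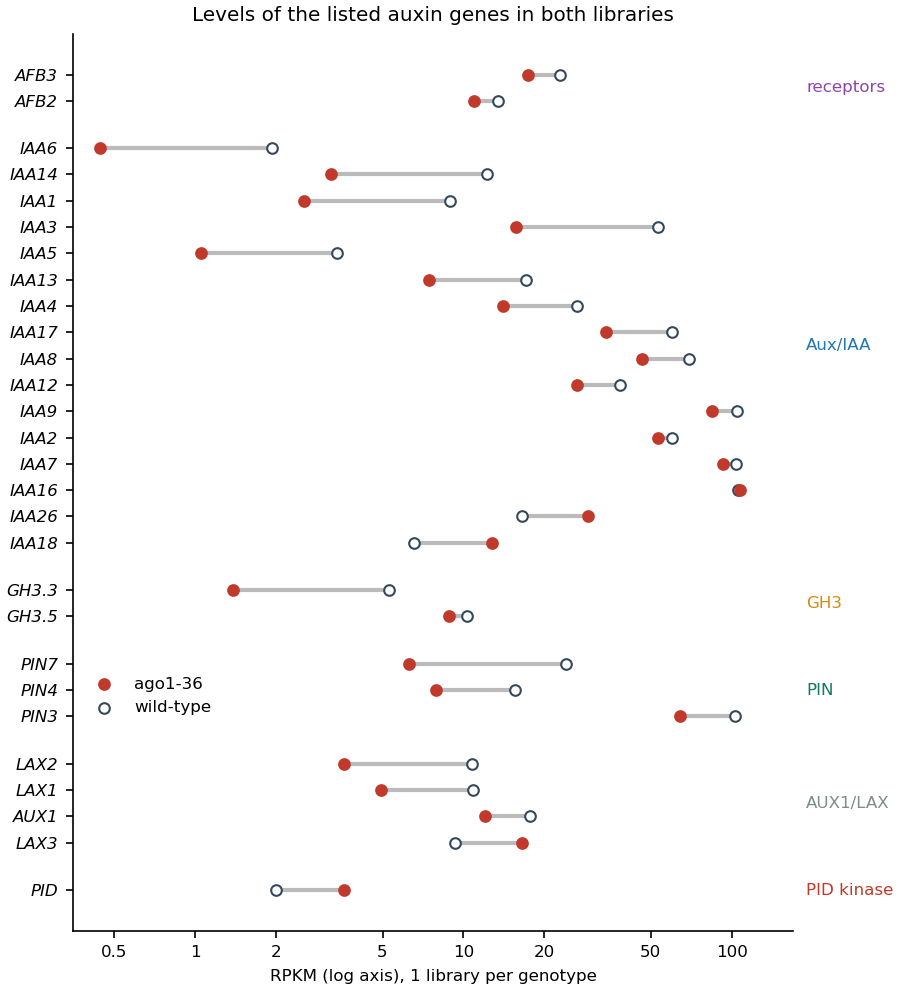
RPKM of 28 of the 29 listed genes on a log axis, the ago1-36 library and the wild-type library as separate symbols, with genes ordered by family. The symbols of IAA7, IAA9 and IAA16 lie close together near 100 RPKM, and those of IAA1, IAA14 and PIN7 lie far apart with ago1-36 lower.

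The degron by which auxin receptors recognise Aux/IAA proteins was read from the coding sequences, since the rule that chose the genes did not use it. Its core codes for glycine, tryptophan and a pair of prolines, and was searched in frame as GGNTGGCCNCCN. It was found in 16 of 16 listed Aux/IAA genes. Among the 13 Aux/IAA genes outside the table it was found in 7 and not in 6, namely IAA20 and IAA30 to IAA34. The windows of 27 bases below are shown for the lowest and the highest listed Aux/IAA genes by log2 ratio, with the core in capitals (TAIR10.1, 5′ to 3′ on the gene's strand).
IAA3, chr1:1129016-1129042 (-): gttGGATGGCCACCAgttagatcttac
IAA14, chr4:8349475-8349501 (-): gtgGGTTGGCCACCGgtgaggaactac
IAA1, chr4:8361442-8361468 (+): gttGGATGGCCTCCAgtgagatctaac
IAA16, chr3:1289727-1289753 (-): gtgGGATGGCCACCGgtacgatctttc
IAA26, chr3:5613659-5613685 (-): gtgGGTTGGCCTCCGgttcgttcgttc
IAA18, chr1:19306237-19306263 (+): gtgGGATGGCCTCCGgttcgatccttc
Because the core is in all 16 listed Aux/IAA genes, its presence at both ends of the range of ratios follows. It says nothing about the ratios.

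AFB2 and AFB3 are F-box auxin receptors. AFB2 had 10.97 RPKM in ago1-36 and 13.5 RPKM in wild-type, 1.23-fold lower in ago1-36 (95% counting interval 1.07 to 1.42). AFB3 had 17.4 RPKM in ago1-36 and 22.9 RPKM in wild-type, 1.31-fold lower (1.17 to 1.47). Neither reached 2-fold. The intervals here and below are exact Clopper-Pearson intervals on reads recovered from the deposited values. For genes with more than 300 reads over both libraries together, the numbers are rounded estimates. The intervals cover counting error only. Amplified reads that carry no molecular identifier are not independent molecules, so the intervals can be too narrow even for that error. AFB3 overlaps AT1G12810 on the opposite strand over 63 of its 2539 bases, and that gene had 19.7 RPKM in ago1-36 and 13.2 RPKM in wild-type.

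Both receptors carry a site for miR393 in their coding sequence, shown here because AGO1 is the effector of this microRNA. The mature miR393a-5p (chr2:16652111-16652132, +) is identical to miR393b-5p, and is given as DNA letters with bases 2 to 8, the seed, in capitals. In the sites, capitals mark bases that pair with the microRNA.
miR393a-5p: tCCAAAGGgatcgcattgatcc
AFB2 site, chr3:9870237-9870258 (+): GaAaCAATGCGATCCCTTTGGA
AFB3 site, chr1:4369085-4369106 (-): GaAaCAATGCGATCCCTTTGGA
The sites have the same letters, with 20 of 22 bases matching and 2 mismatches. The next best stretch of either spliced transcript matched at 13 bases. Set beside these sites, both receptor transcripts lay on the lower side in ago1-36, by less than 2-fold. The part of miR393 in these differences was not tested, and neither miR393 gene nor TIR1 was listed.

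Among the 16 listed Aux/IAA repressors, 6 were at least 2-fold lower in ago1-36, 10 lay between and none was at least 2-fold higher. Of kept genes, 8.38% were lower and 19.6% higher by that count. By any amount 13 of 16 were lower, against 51.5% of kept genes. The median log2 ratio was -0.69 over the 16 and -0.04 over kept genes. The RPKM of the 16 summed to 531 in ago1-36 and 688 in wild-type, a ratio of 0.772. The 6 lower genes include regulators of root branching and root growth as well as weakly expressed, auxin-inducible members.

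IAA14 (SOLITARY-ROOT, AT4G14550), a repressor of lateral root initiation, had 3.23 RPKM in ago1-36 and 12.2 RPKM in wild-type, 3.79-fold lower (2.88 to 5.06). IAA3 (SHY2, AT1G04240), which restrains auxin response at the edge of the root meristem, had 15.7 RPKM in ago1-36 and 53.0 RPKM in wild-type, 3.37-fold lower (2.93 to 3.9). IAA1 (AT4G14560), an early auxin-induced gene, had 2.55 RPKM in ago1-36 and 8.91 RPKM in wild-type, 3.5-fold lower (2.30 to 5.48). In wild-type, IAA3 was thus expressed several-fold above IAA14 and IAA1, near the level of IAA2 and IAA17. IAA3 overlaps AT1G04230 on the opposite strand over 640 of its 1541 bases. AT1G04230 had 26.1 RPKM in ago1-36 and 15.3 RPKM in wild-type, a difference in the other direction. Whether strand was used in counting is not given in the sources used here, so reads of the shared stretch cannot be assigned to either gene.

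IAA13 (AT2G33310) and its relative IAA12 (BODENLOS), which acts with ARF5 in forming the embryonic root, differed in size of difference. IAA13 had 7.47 RPKM in ago1-36 and 17.1 RPKM in wild-type, 2.29-fold lower (1.95 to 2.70). IAA12 had 26.6 RPKM in ago1-36 and 38.4 RPKM in wild-type, 1.44-fold lower (1.29 to 1.62). IAA5 (AT1G15580) and IAA6 (SHY1, AT1G52830) rest on few reads. IAA5 had 1.05 RPKM from 9 reads in ago1-36 and 3.38 RPKM from 29 reads in wild-type, 3.2-fold lower (1.48 to 7.69). IAA6 had 0.444 RPKM from 5 reads in ago1-36 and 1.94 RPKM from 22 reads in wild-type, 4.37-fold lower (1.62 to 14.8). Their intervals are the widest of the 6, and in the authors' deposited table their GFOLD scores were -0.29 for IAA5 and -0.44 for IAA6.

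The genes with the highest Aux/IAA levels differed little between the libraries. IAA16 had 108 RPKM in ago1-36 and 105 RPKM in wild-type. IAA7 (AXR2), known for its gain-of-function mutants with altered gravitropism, had 92.5 RPKM in ago1-36 and 104 RPKM in wild-type. IAA9, a repressor known for its role in leaf and vascular patterning, had 84.2 RPKM in ago1-36 and 105 RPKM in wild-type. All 3 stood above the other listed Aux/IAA genes in both libraries, and the largest of their folds was 1.24. IAA8, the close relative of IAA9, had 46.4 RPKM in ago1-36 and 69.5 RPKM in wild-type, 1.5-fold lower (1.38 to 1.62). Together IAA16, IAA9, IAA7 and IAA8, the 4 highest in wild-type, made up 62.3% of listed Aux/IAA RPKM in ago1-36 and 55.8% in wild-type. Their sum was 0.862 times that of wild-type, and the sum of the other 12 was 0.658 times that of wild-type.

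IAA2, IAA4 and IAA17 lay between. IAA17 (AXR3) had 34.0 RPKM in ago1-36 and 59.9 RPKM in wild-type, 1.76-fold lower (1.57 to 1.96). IAA4 had 14.0 RPKM in ago1-36 and 26.5 RPKM in wild-type, 1.89-fold lower (1.6 to 2.23). IAA2 had 53.0 RPKM in ago1-36 and 59.8 RPKM in wild-type, 1.13-fold lower.

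IAA18 (CRANE) and IAA26 (PAP1), which are each other's closest listed relatives with 74.6% identical coding bases, stood on the higher side. IAA18 had 12.8 RPKM in ago1-36 and 6.56 RPKM in wild-type, 1.95-fold higher (1.58 to 2.41). IAA26 had 29.2 RPKM in ago1-36 and 16.5 RPKM in wild-type, 1.76-fold higher (1.53 to 2.05). Neither reached 2-fold. Their counting intervals exclude equality. Reads were recovered for 24 of the 29 genes, and not for IAA2, IAA7, IAA9, IAA16 and PIN3, which therefore have no interval.

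**Figure D2:**
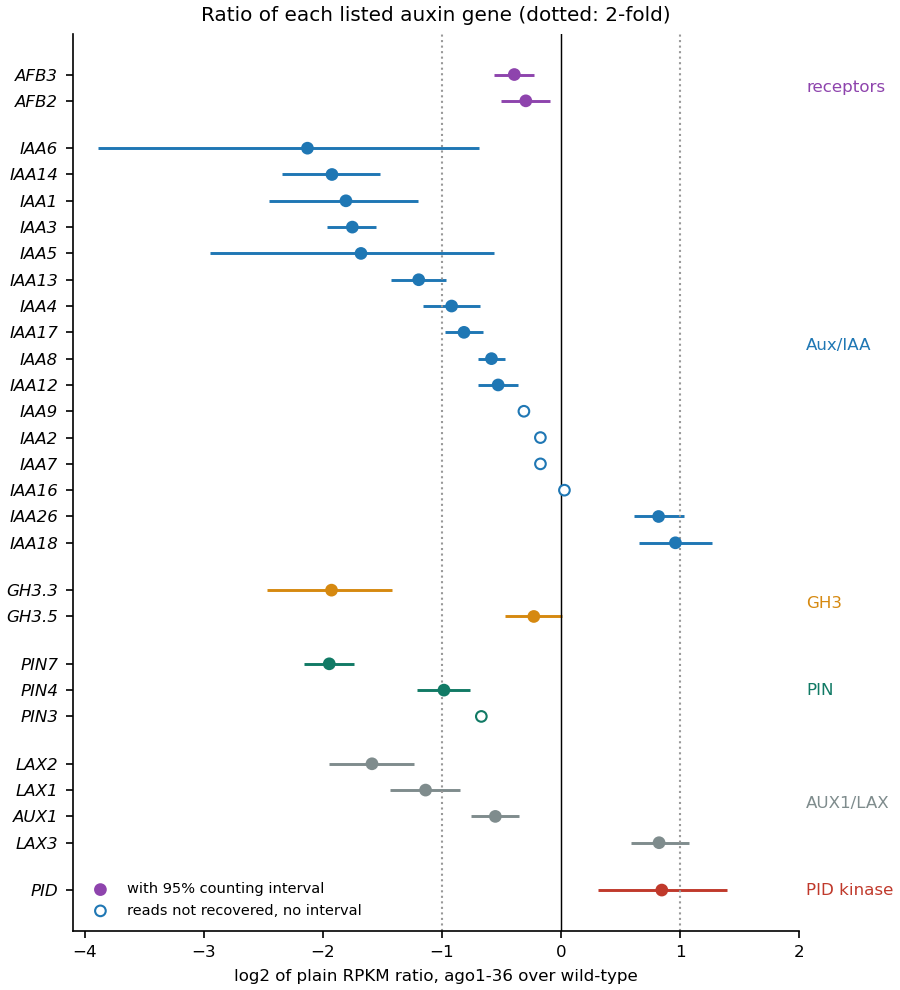
Ratio of ago1-36 to wild-type for 28 of the 29 listed genes on a log2 axis, grouped by family, with exact 95% counting intervals where reads were recovered. The intervals of IAA5 and IAA6 are the widest, and IAA18, IAA26, LAX3 and PID lie to the right of equality with their intervals.

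Of the listed Aux/IAA genes, 6 lie in the genome as 3 head-to-head pairs. IAA14 and IAA1 lie head to head on chromosome 4, 10.7 kb apart, and IAA2 and IAA7 lie head to head on chromosome 3, 12.5 kb apart, with no protein-coding gene annotated between either pair. IAA14 and IAA7 share 80.2% of coding bases and IAA1 and IAA2 share 78.7%, so the pairs are made of corresponding members. In ago1-36, IAA14 was 3.79-fold and IAA1 3.5-fold lower, while IAA7 and IAA2 were each 1.13-fold lower. Both members of the weakly expressed pair were thus past 2-fold, and neither member of the strongly expressed pair was. The third such pair, IAA3 and IAA17 on chromosome 1, 6.4 kb apart, was 3.37-fold and 1.76-fold lower. The longest run of identical bases was 41 between IAA7 and IAA14 and 29 between IAA1 and IAA2, and how reads matching both copies were counted is not given in the sources used here.

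**Figure D3:**
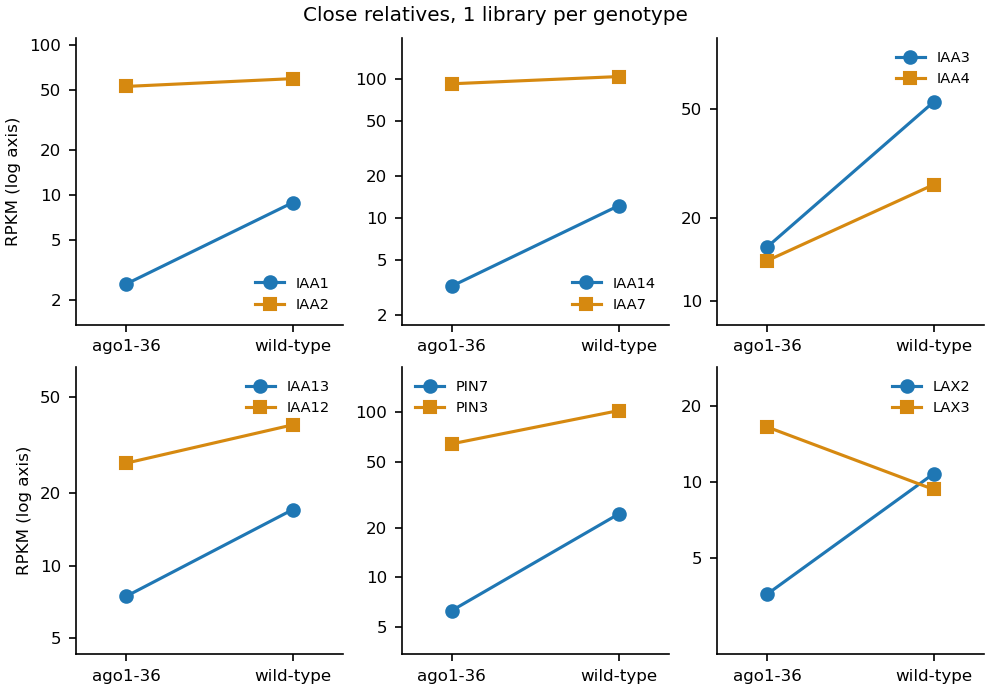
RPKM on a log axis in ago1-36 and wild-type for 6 pairs of related genes, IAA1 and IAA2, IAA14 and IAA7, IAA3 and IAA4, IAA13 and IAA12, PIN7 and PIN3, and LAX2 and LAX3. The gene with the lower log2 ratio of each pair is drawn in blue, so the slope of blue against orange follows from that choice. Pairs with close log2 ratios are not drawn, such as IAA5 and IAA6 (-1.09 and -1.03) and IAA18 and IAA26 (0.86 and 0.78). The lines of LAX2 and LAX3 cross.

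GH3 enzymes join auxin to amino acids and so lower the free hormone, and GH3.3 is a widely used auxin-response gene. GH3.3 (AT2G23170) had 1.39 RPKM from 40 reads in ago1-36 and 5.28 RPKM from 153 reads in wild-type, 3.80-fold lower (2.67 to 5.53). GH3.5 had 8.81 RPKM in ago1-36 and 10.3 RPKM in wild-type, 1.17-fold lower (0.993 to 1.38). The counting interval of GH3.5 includes equality and that of GH3.3 does not.

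The efflux carriers PIN3, PIN4 and PIN7 were on the lower side in ago1-36, and PIN7 was past 2-fold. PIN7 (AT1G23080), which acts in the embryo and in the root columella and stele, had 6.27 RPKM in ago1-36 and 24.2 RPKM in wild-type, 3.85-fold lower (3.34 to 4.46). This was the lowest log2 ratio of the 29 genes, -1.79. PIN4, known from the root meristem, had 7.91 RPKM in ago1-36 and 15.6 RPKM in wild-type, 1.98-fold lower (1.70 to 2.31). PIN3, a carrier of tropic responses, had 64.5 RPKM in ago1-36 and 103 RPKM in wild-type, 1.59-fold lower. PIN3 thus had the highest level of these carriers in both libraries and the smallest fold of them. PIN3 and PIN7 share 77.5% of coding bases, with a longest identical run of 32 bases.

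The influx carriers differed among themselves in direction. LAX2 (AT2G21050), known from vascular development in cotyledons and leaves, had 3.58 RPKM in ago1-36 and 10.8 RPKM in wild-type, 3.00-fold lower (2.36 to 3.86). LAX1 had 4.94 RPKM in ago1-36 and 10.9 RPKM in wild-type. That is a plain ratio of 2.2-fold lower (1.8 to 2.70), while its log2 ratio with 1 added, -0.999, fell just short of the threshold. AUX1, the carrier needed for root gravitropism, had 12.1 RPKM in ago1-36 and 17.7 RPKM in wild-type, 1.47-fold lower (1.28 to 1.69). LAX3, which acts in the cells overlying lateral root primordia, had 16.5 RPKM in ago1-36 and 9.32 RPKM in wild-type, 1.77-fold higher (1.5 to 2.1). LAX3 thus had the highest level of the 4 influx carriers in ago1-36, and AUX1 had the highest in wild-type. LAX2 and LAX3 share 73.0% of coding bases.

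PID, the kinase that acts on PIN proteins, had 3.59 RPKM from 84 reads in ago1-36 and 1.996 RPKM from 47 reads in wild-type, 1.8-fold higher (1.24 to 2.63). It did not reach 2-fold, and in the authors' deposited table its GFOLD score was 0.05.

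**Figure D4:**
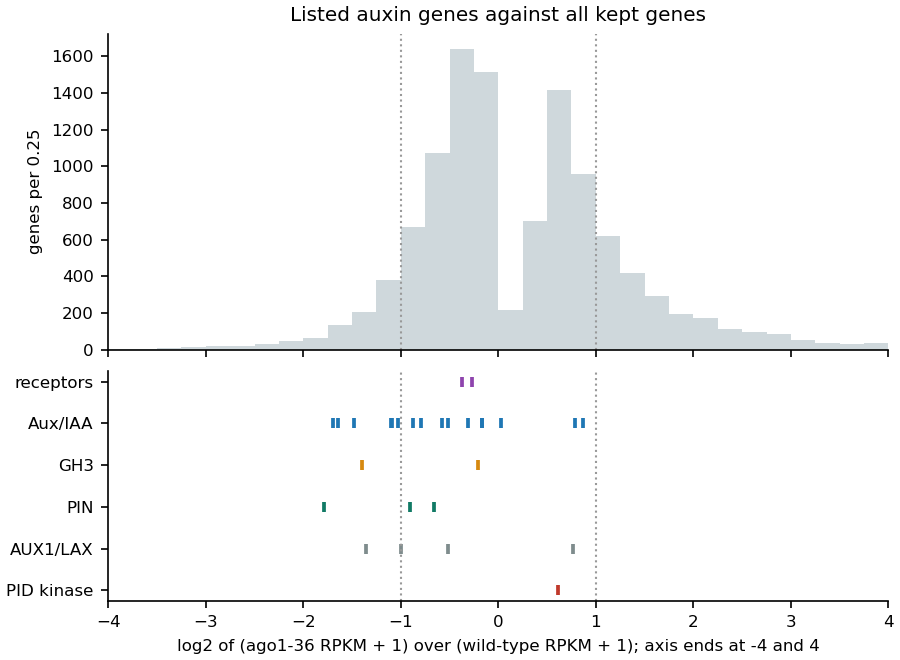
Log2 ratios of 28 of the 29 listed auxin genes by family, set under the distribution over kept genes from -4 to 4, with dotted lines at 2-fold. The ticks reach from -1.79 for PIN7 to 0.86 for IAA18, the distribution has few genes just above 0, and no tick lies past 2-fold on the higher side.

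Auxin-response elements are the short DNA letters that ARF proteins are known to bind, and the first 250 bases upstream of each annotated start were searched for TGTCTC and TGTCGG on both strands (TAIR10.1). They share their first 4 letters, and no match of one overlapped a match of the other in these genes. TGTCTC was found in 6 of the 29 genes (20.7%), against 10.5% of listed genes and 10.9% of all protein-coding genes. It was in 4 of the 9 genes that were at least 2-fold lower, IAA1, IAA5, IAA6 and GH3.3, and in 2 of the other 20, IAA8 and GH3.5. TGTCGG was found in IAA1, IAA5, IAA12, IAA13, IAA16 and LAX3, again 20.7%, against 4.81% of listed genes and 4.16% of all protein-coding genes. Either motif was in 10 of 29 (34.5%), against 14.7% of listed genes and 14.7% of all protein-coding genes. By call, it was in 5 of the 9 lower genes and in 5 of the other 20.

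The windows of 3 lower genes that hold TGTCTC and of IAA2, the closest relative of IAA1, are printed to show the motifs in place. Capitals mark TGTCTC or TGTCGG, or their reverse complements GAGACA and CCGACA, and each window reads 5′ to 3′ on the gene's strand and ends at the base before its start.
IAA1, chr4:8360746-8360995 (+): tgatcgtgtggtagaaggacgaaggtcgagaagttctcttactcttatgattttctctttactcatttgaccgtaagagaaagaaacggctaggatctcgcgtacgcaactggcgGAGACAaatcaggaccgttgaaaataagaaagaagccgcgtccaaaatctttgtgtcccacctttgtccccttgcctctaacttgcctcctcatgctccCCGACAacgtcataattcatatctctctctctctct
IAA2, chr3:8182096-8182345 (-): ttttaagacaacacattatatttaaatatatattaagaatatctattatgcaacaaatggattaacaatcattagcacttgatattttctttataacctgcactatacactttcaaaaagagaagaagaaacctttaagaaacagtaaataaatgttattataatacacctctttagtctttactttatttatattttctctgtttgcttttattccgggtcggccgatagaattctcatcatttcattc
IAA5, chr1:5366498-5366747 (-): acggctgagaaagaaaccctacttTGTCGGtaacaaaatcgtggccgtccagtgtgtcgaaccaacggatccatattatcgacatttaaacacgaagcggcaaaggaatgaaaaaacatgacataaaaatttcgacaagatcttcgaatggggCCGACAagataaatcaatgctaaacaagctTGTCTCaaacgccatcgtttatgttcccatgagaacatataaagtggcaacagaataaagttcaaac
GH3.3, chr2:9866563-9866812 (-): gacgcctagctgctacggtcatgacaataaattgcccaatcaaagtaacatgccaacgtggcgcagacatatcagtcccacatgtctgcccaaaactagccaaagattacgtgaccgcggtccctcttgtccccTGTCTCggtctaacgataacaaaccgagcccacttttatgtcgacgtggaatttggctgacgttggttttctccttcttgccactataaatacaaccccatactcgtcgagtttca
In IAA1 the TGTCTC match begins 135 bases and the TGTCGG match 36 bases upstream of the start, both on the reverse strand. IAA5 has TGTCTC 67 bases and TGTCGG 97 and 226 bases upstream, and GH3.3 has TGTCTC 116 bases upstream. The IAA2 window holds neither motif, and neither do the windows of the lower genes IAA3, IAA14, PIN7 and LAX2. GH3.5 holds TGTCTC as its relative GH3.3 does, and IAA12 holds TGTCGG as its relative IAA13 does. A match is a description of letters, and binding was not measured.

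Genes outside the 29 were examined as lists of the same pathway. The counts of each list stand against the 8.38% of kept genes that were lower and the 19.6% that were higher. The lists are partial, because 9 of 16 named auxin synthesis genes, 6 of 15 ARF genes and 6 of 12 SCF and co-repressor genes were not listed. Also not listed were 6 of 18 other transport genes and 12 of 25 other auxin-responsive genes. Of 7 kept auxin synthesis genes, 1 was lower and 2 were higher, with a median log2 ratio of 0.53. The list reached from YUC6, a flavin monooxygenase of the main route, with 1.72 RPKM in ago1-36 and 5.64 RPKM in wild-type, to CYP79B2, which makes an indolic precursor from tryptophan, with 70.0 RPKM in ago1-36 and 21.5 RPKM in wild-type. Of 9 kept ARF genes, 1 was lower and 3 were higher, with a median of 0.49. ARF17, the highest of them by log2 ratio, had 16.1 RPKM in ago1-36 and 2.78 RPKM in wild-type. ARF11, the lowest, had 1.104 RPKM in ago1-36 and 3.29 RPKM in wild-type. In lists as short as these, such counts do not stand clearly apart from the shares over all kept genes. The 6 kept genes of the SCF machinery and the TOPLESS co-repressors all lay between the thresholds, with a median of 0.40, from TPR2 with 8.55 RPKM in ago1-36 and 9.42 RPKM in wild-type to AXR1 with 9.12 RPKM in ago1-36 and 5.66 RPKM in wild-type.

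Of 11 kept genes of other auxin transport, 3 were lower and none was higher, with a median log2 ratio of -0.30. The range ran from WAG1, a kinase related to PID, with 1.15 RPKM in ago1-36 and 6.88 RPKM in wild-type, to PILS3, a PIN-like carrier, with 20.5 RPKM in ago1-36 and 10.11 RPKM in wild-type. WAG2, named after its values were seen, had 0.975 RPKM in ago1-36 and 5.07 RPKM in wild-type. The kinases WAG1 and WAG2 thus stood on the lower side and PID on the higher side. Of 13 kept auxin-responsive genes outside the 29, 5 were lower and 1 was higher, with a median of -0.59, close to that of the 29. HAT2, an auxin-induced homeodomain gene, had 5.10 RPKM in ago1-36 and 25.7 RPKM in wild-type, and SAUR41 had 1.35 RPKM from 16 reads in ago1-36 and 0.0839 RPKM from 1 read in wild-type.

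Several of the 29 genes are expressed mainly in roots or in young leaves, so marker genes of both organs were measured beside them. Of 20 named root markers, 9 were not listed, while all 14 leaf markers were. The leaf markers are all photosynthesis genes, of the RBCS, LHCA and LHCB families. Marker counts again stand against 8.38% of kept genes lower, 19.6% higher and 51.5% lower by any amount. Of 11 kept root markers, 7 were at least 2-fold lower in ago1-36 and none higher, and all 11 were lower by some amount, with a median log2 ratio of -1.15 and a summed level of 883 RPKM in ago1-36 and 1087 RPKM in wild-type. The lowest ratio was that of PRP3, a root-hair cell wall gene, with 1.94 RPKM in ago1-36 and 16.9 RPKM in wild-type. The highest was that of PYK10, with 829 RPKM in ago1-36 and 960 RPKM in wild-type. PYK10 thus made up most of the summed root marker level in both libraries. Of 14 kept leaf markers, 9 were lower and none higher, with a median of -1.21 and a summed level of 10494.5 RPKM in ago1-36 and 20990.5 RPKM in wild-type. No kept marker of either list was at 0. Markers of both organs moved in the direction of most of the 29 genes, and their part in those differences was not tested. Whether the leaf markers followed leaf content or the expression of photosynthesis genes was not tested either.

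**Figure D5:**
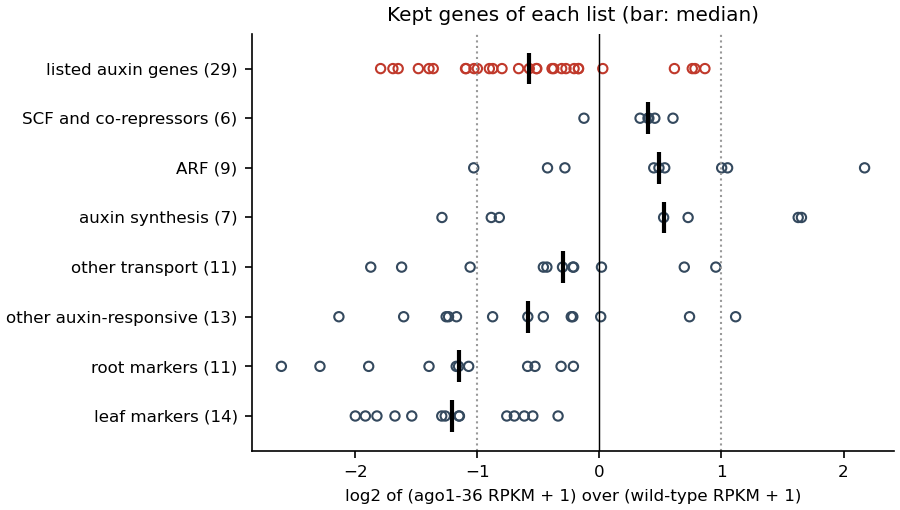
Log2 ratio of each kept gene, by list, with bars at the medians and dotted lines at 2-fold. The 29 listed auxin genes have a median of -0.57, between the ARF list at 0.49 and the leaf markers at -1.21.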

How the data were processed

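RNA of whole seedlings was extracted with TRIzol and made into libraries by the SMART method, per the labels' protocols, with 1 library per genotype. The submitters' processing notes name TopHat2 2.0.11 and TAIR10. The sources used here do not give the counting tool, whether it used strand, how it treated reads matching several genes, or how the listed genes were selected. Per the file headers, the authors' deposited table holds RPKM per gene and library, a log2 fold change and a GFOLD score. The score is understood here as a log2 fold change shrunk for low counts, a meaning that the headers do not give. The table had 11957 gene lines, of which 291 repeats were dropped; 2 fragment lines were not used.

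The members and lists were chosen with earlier results of these data known. Listed members could be named, as could AGO1 and the highest and lowest kept gene of each other list. The measure was log2 of (ago1-36 RPKM + 1) over (wild-type RPKM + 1), for genes at 1 RPKM or more in either library. Folds are plain RPKM ratios. The values of 1 listed member are not reported here, while counts and medians over all members include it. Reads were recovered from RPKM and the deposited log2 fold change, and withheld where the estimate was unstable by 5%. They came out whole within 0.1 for 99.8% of genes with 1 to 100 reads over both libraries together. The shares were 94.8% from 100 to 300 and 29.1% from 300 to 1000, so larger numbers are estimates rounded to whole reads. Exact Clopper-Pearson 95% intervals were taken on these numbers (scipy 1.17.1). The depths of 13590000 reads in ago1-36 and 13670000 in wild-type are estimates. The alternatives were pseudocounts of 0.1 and 0.5, no filter, a 5 RPKM filter, scaling by the median ratio or to a sum of 1000000, the deposited log2 fold change and GFOLD score, leaving out overlapping genes, and a plain ratio added after seeing the data. The steps were tested on simulated data. Sequences and gene positions were read from the TAIR10.1 genome and annotation, where all 29 identifiers matched, using Biopython 1.88; the deposited table holds no coordinates. Tables were handled with pandas 2.3.3 and numpy 2.4.6, under Python 3.11.15, and plots were drawn with matplotlib 3.10.9.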

Additional observations from a re-analysis of the deposited data

How the results depend on the processing

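With 1 library per genotype there is no replicate to leave out. No paired analysis was possible because each genotype has 1 library. Over 10 alternatives, 28 of the 29 members kept their direction. The exception was IAA16, whose log2 ratio of 0.03 became -0.16 by the log2 fold change and -0.05 by the GFOLD score of the authors' deposited table. That log2 fold change carries a constant offset and shifted the median of kept genes by -0.19. By it, the median was -0.77 over members, -0.88 over Aux/IAA genes and -1.01 over PIN and AUX1/LAX genes, of which 4 were then at least 2-fold lower, and 1791 kept genes were lower. The share of 2-fold calls that were higher was 55.7% by it, against 70% by the RPKM ratio and 61.9% by the GFOLD score. By the GFOLD score the Aux/IAA median was -0.48 and 1391 kept genes were higher, and IAA5 and IAA6 no longer passed 2-fold. Of the genes described, a filter of 5 RPKM left out IAA5, IAA6 and PID. LAX1 lay at the 2-fold threshold, past it under 5 of the 10 alternatives. The cause of the offset was not tested. Depth limits IAA5 and IAA6 most, at 9 and 5 reads in ago1-36 and 29 and 22 reads in wild-type.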
